A study of Mus musculus with 12 samples.

Results

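The genes of cholesterol and fatty acid synthesis were followed through the differentiation of C2C12 cells, an immortalised mouse myoblast line that fuses into multinucleate myotubes. The 29 genes were taken by symbol from a table of 55385 genes, each symbol matched 1 row, and all 29 passed the filter on low counts, among 15932 genes tested. They cover the mevalonate pathway (6 genes), the steps through squalene to cholesterol (11 genes) and fatty acid synthesis (7 genes). The others are the sterol regulatory element-binding proteins, or SREBPs, with their regulators (4 genes together), and 1 sterol transport gene. The groups were myotubes after 7 days of differentiation and undifferentiated myoblasts, with 3 total RNA libraries each. No genotype change or added agent is given for either group, both came from the same line, and the composition of the media is not given in the sources used here. Whether the 3 libraries of a group are separate cultures is not stated, and the p-values speak only of the variation among these libraries, part of which may be technical.

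Cells build cholesterol from acetyl-CoA through mevalonate and isoprenoids to squalene, and then through lanosterol in a long series of oxidations and reductions. The SREBP transcription factors switch on these genes and those of fatty acid synthesis. When sterols are low, the escort protein SCAP carries the SREBPs from the endoplasmic reticulum to the Golgi, where proteases release the active factor. When sterols are high, INSIG proteins hold SCAP back, so the genes of the pathway are known to move together. In muscle cells the same lipids supply the plasma and sarcoplasmic membranes, and malonyl-CoA, the product of acetyl-CoA carboxylase, also restrains fatty acid oxidation.

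Promoter sequences are given because SREBPs are known to act on promoters of this family, together with the factor NF-Y, which reads the letters CCAAT, and with Sp1. RefSeq windows on GRCm38.p6, running from 250 bases before to 50 bases after an annotated start, were present for 23 of the 29 genes, 29 windows in all. Fdft1, Fdps, Scd1, Scd2, Sqle and Stard4 had none in the table used. The 250 bases before the start are printed 5′ to 3′ on the strand of the gene, with capitals marking the letters TCACNCCAC, a form of the sterol regulatory element, and CCAAT, each searched on both strands. Hmgcs1 is shown as the only window with the first motif, Mvk and Fasn for their CCAAT letters, and Elovl6 as a gene that was lower in myotubes and whose window held neither motif.
Hmgcs1, chr13:119690101-119690350, plus strand: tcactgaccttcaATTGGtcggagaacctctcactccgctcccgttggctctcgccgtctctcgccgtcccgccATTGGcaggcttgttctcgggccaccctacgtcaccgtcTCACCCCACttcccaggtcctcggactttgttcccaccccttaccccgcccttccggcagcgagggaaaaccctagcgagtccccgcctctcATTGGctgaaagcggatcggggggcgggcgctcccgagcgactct
Mvk, chr5:114444019-114444268, plus strand: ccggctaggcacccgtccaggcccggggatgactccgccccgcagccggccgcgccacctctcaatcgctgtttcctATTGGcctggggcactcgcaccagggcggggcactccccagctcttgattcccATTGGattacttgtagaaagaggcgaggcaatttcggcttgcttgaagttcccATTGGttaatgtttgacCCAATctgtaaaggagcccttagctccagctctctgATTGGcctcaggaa
Fasn, chr11:120824548-120824797, minus strand: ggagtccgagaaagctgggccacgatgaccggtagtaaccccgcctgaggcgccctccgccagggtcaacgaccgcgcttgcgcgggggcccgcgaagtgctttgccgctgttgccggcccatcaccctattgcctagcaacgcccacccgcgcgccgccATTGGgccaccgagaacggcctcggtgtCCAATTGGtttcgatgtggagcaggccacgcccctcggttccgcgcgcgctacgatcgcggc
Elovl6, chr3:129532136-129532385, plus strand: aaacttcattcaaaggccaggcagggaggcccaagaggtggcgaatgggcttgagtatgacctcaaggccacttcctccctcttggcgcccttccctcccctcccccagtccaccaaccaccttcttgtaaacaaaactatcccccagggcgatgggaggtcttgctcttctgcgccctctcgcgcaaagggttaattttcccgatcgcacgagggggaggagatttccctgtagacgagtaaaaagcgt
In Hmgcs1 the letters TCACNCCAC began 137 bases before the start, between copies of CCAAT (on the other strand) at 176 and 45 bases before it. Mvk held 5 copies of CCAAT in the 250 bases shown. In Fasn 2 of the 3 copies overlapped on opposite strands, at 62 and 59 bases before the start. The Fasn location used here reaches 120825166 at its 5′ end, so this annotated start lies inside the gene. CCAAT was present in 21 of the 29 windows (72.4%), against 37.4% of 32851 mouse windows of the same length. GGGCGG, a core of Sp1 sites, was also in 21 of 29 windows (72.4%), against 35.7% of all windows. The windows compared were not matched for expression or base composition. Whether these shares differ from those of other expressed genes was not tested. TCACNCCAC was in 1 window of 29 (3.45%) and in 1.24% of all windows, and the palindrome TCACGTGA was in 0 windows of 29, against 0.974% of all. None of the 4 motifs contains another, and these are matches of letters and not measured binding.

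Total counts per library were 18335785 to 31119511 in myotubes and 22200097 to 54083215 in myoblasts. The libraries matched their labels: all 8 myotube markers were higher in myotubes and all 6 proliferation markers were lower. Levels are given as CPM, counts scaled to library size after TMM correction for the makeup of each library. The summed myotube markers reached 4439, 10436 and 9790.2 CPM in myotube replicates 1, 2 and 3, against 14.9, 47.3 and 80.6 CPM in myoblast replicates 1, 2 and 3. The summed proliferation markers were at 954, 257 and 211 CPM in those myotube libraries, against 2542, 2626 and 2658 CPM in the myoblast libraries, so myotube replicate 1 kept more of them than the other myotube libraries. Among 8 adipocyte markers, Adipoq, Cidec and Cfd had 0 counts in all 6 libraries. Pparg, the only one of the 8 that passed the filter, was at 10.2, 6.19 and 8.75 CPM in myotubes, against 23.5, 22.9 and 20.2 CPM in myoblasts. The RNA is from bulk cultures, in which fewer cells of a type and less RNA per cell cannot be told apart.

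Most of the synthesis genes did not pass the test between myotubes and myoblasts, although 40.1% of all tested genes did. By the edgeR quasi-likelihood test at an adjusted p under 0.05, 1 of the 29 genes was higher in myotubes (Scd1, a desaturase) and 2 were lower (Elovl6, an elongase, and Scap), or 10.3% of the 29. Of all tested genes 20.5% were higher and 19.6% were lower. The groups did not overlap in 5 of the 29 genes, against 55.9% of all tested genes. The median log2 fold change, myotubes over myoblasts, was 0.30 over the 29 genes and 0.06 over all tested genes, and it was positive for 18 of the 29. Both values depended on single libraries: without myotube replicate 2 the median of the 29 was -0.09 with 12 positive, and without myoblast replicate 1 it was 0.43 with 22 positive. Without myoblast replicate 3, 15 were positive. Scd1, Elovl6 and Scap passed the test under all 14 alternative settings tried. Of the other 26 genes, 7 passed under at least 1 alternative and 19 under none. For 10 of the 29 the sign of the log2 fold change itself turned under at least 1 alternative.

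**Figure D1:**
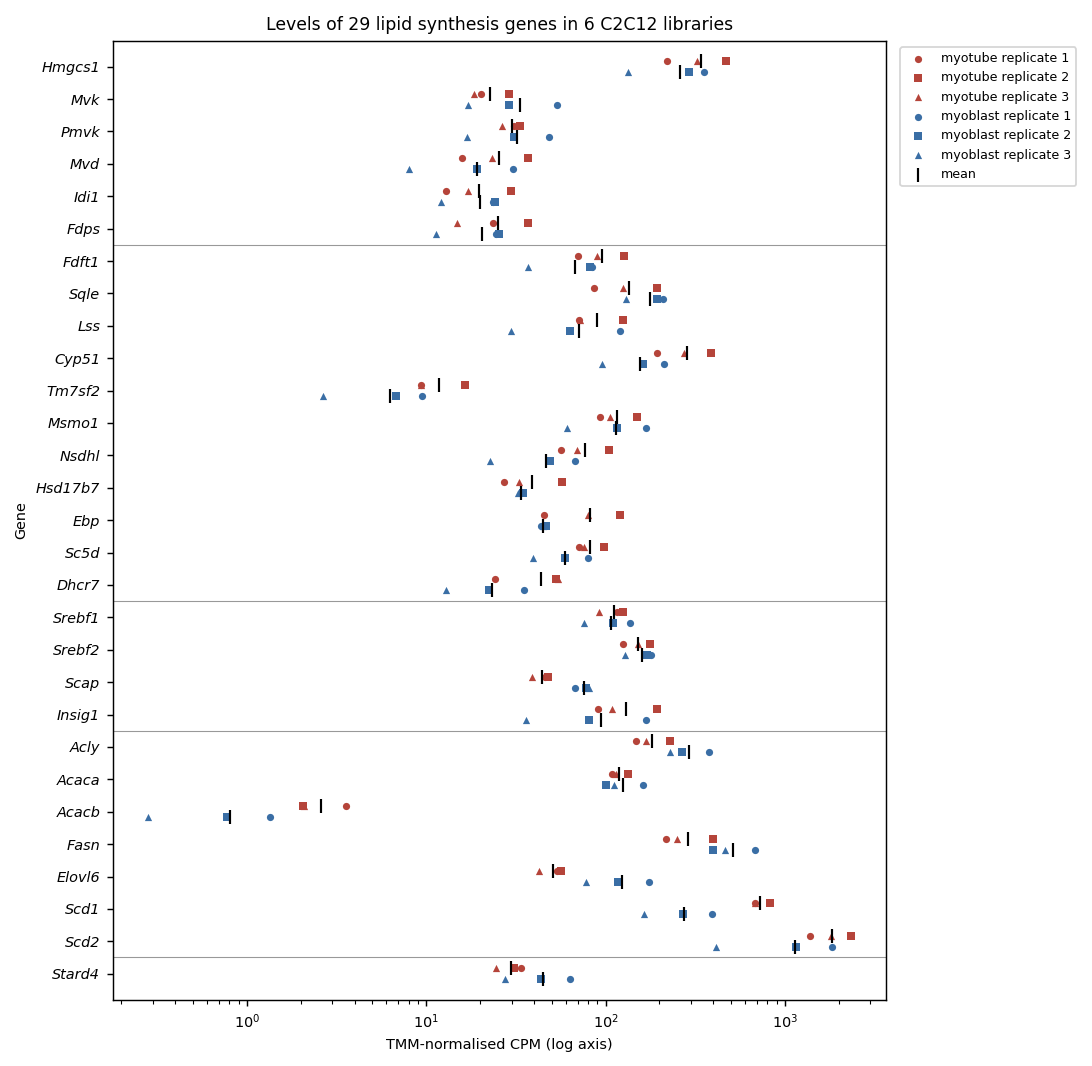
TMM-normalised CPM (log axis) of the 29 genes in each library, with myotubes in red above myoblasts in blue; symbols mark the replicate and black ticks the mean of 3 libraries. The groups overlap in 24 of 29 genes, and myoblast replicate 3 (blue triangle) is the lowest myoblast library in 25 of 29.

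**Figure D2:**
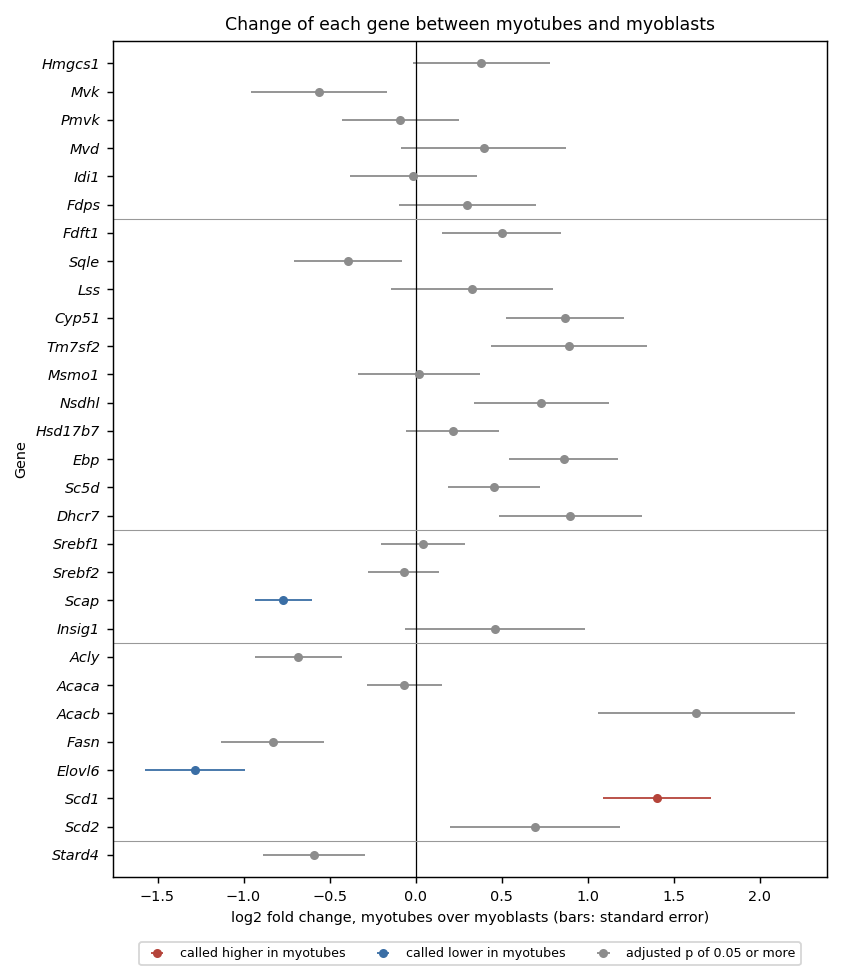
Log2 fold change of each gene, myotubes over myoblasts, with its standard error (bar). Horizontal lines separate the mevalonate, squalene and sterol, SREBP and regulator, fatty acid and transport genes. Scd1 is called higher, Elovl6 and Scap are called lower, and the other 26 genes did not pass the adjusted p of 0.05.

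Libraries of the same group differed from each other in most genes of the pathway. Myoblast replicate 3 was the lowest myoblast library for 25 of the 29 genes, against 35.0% of all tested genes, and myoblast replicate 1 was the highest for 24, against 37.6%. Myotube replicate 2 was the highest myotube library for 26 of the 29, against 29.6% of all tested genes, and myotube replicate 1 the lowest for 21, against 42.7%. In log2 CPM, the median deviation of the 29 genes from their group mean was -0.28, 0.40 and -0.11 in myotube replicates 1, 2 and 3, and 0.57, 0.07 and -0.66 in myoblast replicates 1, 2 and 3. Over all tested genes the same medians lay between -0.01 and 0.04. In myoblasts 20 of the 29 genes ranged more than 2-fold between libraries, against 24.5% of all tested genes, and in myotubes 9 of the 29 did, against 26% of all tested genes. Among the 12468 tested genes with a mean level at least that of the lowest of the 29, these shares were 15.5% in myoblasts and 20.2% in myotubes.

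The exceptions in myoblasts were Ebp, Scap, Acaca and Fasn, for which replicate 3 was not the lowest library. Hsd17b7 and Ebp, which act late in sterol synthesis, varied only 1.07-fold each across the myoblast libraries, while Insig1, Scd2 and Lss varied 4.68-fold, 4.45-fold and 4.09-fold. The exceptions in myotubes were Dhcr7, highest in replicate 3, and Acacb and Stard4, highest in replicate 1. The summed level of the 29 genes was 4068, 6627 and 4891 CPM in myotube replicates 1, 2 and 3, against 5839, 4050.5 and 2512 CPM in myoblast replicates 1, 2 and 3. As a share of all counts this was 0.386%, 0.653% and 0.460% in myotubes, against 0.646%, 0.430% and 0.241% in myoblasts, and the groups overlapped. Beside this order, the summed myotube markers had their lowest myoblast value in replicate 1 and their highest in replicate 3, the reverse. In myotubes the markers were lowest in replicate 1 and highest in replicate 2, as the synthesis genes were. Total counts fell from myoblast replicate 1 to 3 (54083215, 38640616 and 22200097), as the synthesis genes did. In myotubes the total counts were 27273254, 31119511 and 18335785, lowest in replicate 3. The part of these markers or of depth in the spread of the synthesis genes was not tested.

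**Figure D3:**
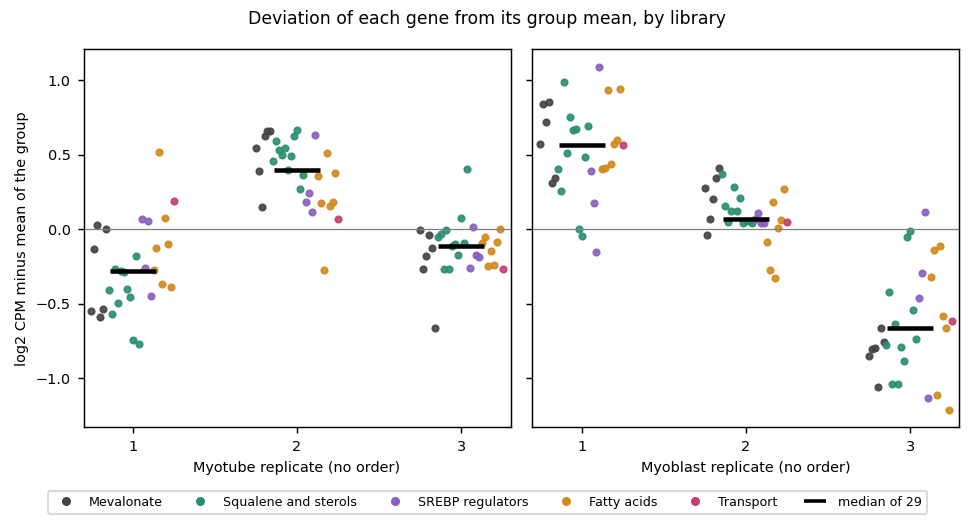
Log2 CPM of each of the 29 genes minus the mean of its group, by library, with myotubes on the left and myoblasts on the right; colours give the role and black bars the median of 29. The medians are 0.40 in myotube replicate 2 and -0.66 in myoblast replicate 3, with most genes of every role on the same side of 0.

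The mevalonate pathway turns acetyl-CoA into isoprenoid diphosphates, and 0 of the 6 genes followed here, which do not cover every step, passed the test in either direction (0 also at an unadjusted p under 0.05, and 0 by DESeq2). Over all tested genes 7989 of 15932 had an unadjusted p under 0.05. The first of the 6 genes, Hmgcs1, encodes the synthase that forms HMG-CoA. It stood at 222, 472 and 323 CPM in myotube replicates 1, 2 and 3, against 356, 291 and 133 CPM in myoblast replicates 1, 2 and 3. The libraries of both groups interleaved, and the log2 fold change was 0.38 ± 0.40 (SE; edgeR adjusted p = 0.463). Mvk, the kinase that phosphorylates mevalonate, was at 20.2, 29.1 and 18.4 CPM in myotubes, against 53.6, 29.1 and 17.1 CPM in myoblasts. Its log2 fold change of -0.56 ± 0.39 (SE) rested on myoblast replicate 1, without which it was -0.05. The next kinase, Pmvk, and the decarboxylase Mvd had log2 fold changes of -0.09 ± 0.34 and 0.39 ± 0.48 (SE). The isomerase Idi1 and the farnesyl diphosphate synthase Fdps were at -0.01 ± 0.37 and 0.30 ± 0.40 (SE). The signs of Pmvk, Mvd, Idi1 and Fdps turned when single libraries were left out. The summed level of the 6 genes was 325, 638 and 423 CPM in myotubes, against 536, 419.7 and 199 CPM in myoblasts.

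The 11 genes from squalene to cholesterol had a median log2 fold change of 0.50, with 10 positive, and 0 passed the test (0 also by DESeq2). At an unadjusted p under 0.05 there were 2 of the 11, against 7989 of all 15932 tested genes. Squalene synthase, encoded by Fdft1, was at 70.0, 127.5 and 89.5 CPM in myotubes, against 83.8, 82.0 and 37.0 CPM in myoblasts. Sqle, the squalene monooxygenase, had the only negative log2 fold change of the 11, -0.39 ± 0.31 (SE; edgeR adjusted p = 0.339). It was at 86.6, 194 and 126 CPM in myotubes, against 208, 194 and 130.3 CPM in myoblasts, so myotube replicate 2 lay within the myoblast range and replicates 1 and 3 below it. Lss, which closes the ring to lanosterol, was at 71.5, 125 and 71.8 CPM in myotubes, against 121, 63.0 and 29.5 CPM in myoblasts.

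Cyp51, the lanosterol demethylase, had one of the larger values of this branch. It was at 195, 388 and 273 CPM in myotubes, against 212, 162 and 95.5 CPM in myoblasts, and only myotube replicate 1 lay within the myoblast range. The log2 fold change was 0.87 ± 0.34 (SE; edgeR adjusted p = 0.076). The last steps gave similar sizes, with Dhcr7, the reductase that yields cholesterol, at 0.90 ± 0.42 (adjusted p = 0.119) and Ebp, the sterol isomerase, at 0.86 ± 0.32 (adjusted p = 0.0599). Dhcr7 was at 24.1, 53.0 and 54.5 CPM in myotubes, against 35.0, 22.3 and 13.0 CPM in myoblasts. Ebp was at 45.3, 120.1 and 79.9 CPM in myotubes, against 43.7, 46.8 and 44.5 CPM in myoblasts. In both genes myotube replicates 2 and 3 lay above every myoblast library, while replicate 1 lay within the myoblast range. Without myotube replicate 1 the adjusted p was 0.0279 for Cyp51, 0.0314 for Dhcr7 and 0.00225 for Ebp, with log2 fold changes of 1.06, 1.16 and 1.14. Over the 14 alternatives the adjusted p ranged up to 0.260, 0.292 and 0.231 for the same genes.

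The other sterol genes did not pass either. Tm7sf2, a sterol reductase with the lowest level of the 11, was at 9.32, 16.5 and 9.39 CPM in myotubes, against 9.42, 6.77 and 2.67 CPM in myoblasts (log2 fold change 0.89 ± 0.45, SE). The demethylation genes Msmo1 and Nsdhl had log2 fold changes of 0.02 ± 0.35 and 0.73 ± 0.39. Hsd17b7, the ketoreductase, and Sc5d, the desaturase, were at 0.21 ± 0.27 and 0.46 ± 0.27 (SE). For Lss, Msmo1 and Hsd17b7 the sign turned under at least 1 alternative. The summed level of the 11 genes was 749.99, 1433 and 988 CPM in myotubes, against 1062, 835 and 509 CPM in myoblasts.

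Of the 4 genes of the SREBPs and their regulators, Scap (ENSMUSG00000032485.14), the SREBP escort gene on chromosome 9 at 110333288 to 110384949, was lower in myotubes. It stood at 45.8, 47.8 and 39.1 CPM in myotubes, against 67.6, 77.4 and 81.4 CPM in myoblasts, and the groups did not overlap. The groups did not overlap in this direction in 27.2% of all tested genes. The log2 fold change was -0.77 ± 0.17 (SE; edgeR adjusted p = 0.00798), and it lay between -0.88 and -0.70 over the 14 alternatives. Scap was also the only one of the 29 genes whose highest myoblast library was replicate 3.

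The transcription factor genes themselves differed by less than their spread. Srebf1 was at 116, 125 and 92.0 CPM in myotubes, against 137, 109.7 and 76.0 CPM in myoblasts (log2 fold change 0.04 ± 0.24, SE). Srebf2 was at 125, 178 and 152 CPM in myotubes, against 178, 170.0 and 129 CPM in myoblasts (-0.07 ± 0.21, SE). The widest range within a group was 1.81-fold, for Srebf1 in myoblasts, where the median range over all tested genes was 1.47-fold. Per kilobase of gene length (RPKM, from the TMM-scaled counts and the deposited lengths), Srebf1 made up 54.1%, 47.3% and 43.6% of the sum of Srebf1 and Srebf2 in myotubes, against 49.6%, 45.1% and 42.9% in myoblasts. Insig1, the retention protein and itself a known SREBP target, was at 91.2, 192 and 109 CPM in myotubes, against 168, 81.0 and 35.9 CPM in myoblasts (log2 fold change 0.46 ± 0.52, SE; edgeR adjusted p = 0.503). It followed the library order of the sterol genes in both groups, with myotube replicate 2 and myoblast replicate 1 highest.

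In fatty acid synthesis the genes went both ways. The desaturase gene Scd1 (ENSMUSG00000037071.3), which makes monounsaturated fatty acids, was higher in myotubes, at 677, 822 and 681 CPM, against 392, 269.5 and 163 CPM in myoblasts. Every myotube library lay above every myoblast library, as for 28.7% of all tested genes. Its mean was 727 ± 82.5 CPM in myotubes and 275 ± 114 CPM in myoblasts (SD, n = 3 each), a log2 fold change of 1.40 ± 0.32 (SE; edgeR adjusted p = 0.0095), or 2.64-fold. Leaving out single libraries gave log2 fold changes of 1.12 to 1.74.

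The neighbouring gene Scd2, a second desaturase, was the most abundant of the 29. It stood at 1375, 2341 and 1805 CPM in myotubes, against 1841, 1158 and 414 CPM in myoblasts, and the groups overlapped (log2 fold change 0.69 ± 0.49, SE; edgeR adjusted p = 0.287). Both lie on chromosome 19 of GRCm38, Scd2 at 44293676 to 44306864 and Scd1 at 44394450 to 44407709. Per kilobase, Scd1 made up 35.5%, 28.2% and 29.6% of the sum of both in myotubes, against 19.2%, 20.6% and 30.6% in myoblasts, and myoblast replicate 3 lay inside the myotube range. The difference of these shares was not tested. Reads that match both paralogs may have been dropped or assigned to either, since the treatment of shared reads is not given in the sources used here.

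Elovl6 (ENSMUSG00000041220.10), which elongates palmitate to stearate, was lower in myotubes. It stood at 53.3, 56.4 and 42.8 CPM in myotubes, against 175, 118 and 78.3 CPM in myoblasts, without overlap. The mean was 50.8 ± 7.16 CPM in myotubes and 124 ± 48.4 CPM in myoblasts (SD, n = 3 each), a log2 fold change of -1.28 ± 0.29 (SE; edgeR adjusted p = 0.00966), and it lay between -1.57 and -0.96 over the 14 alternatives. On chromosome 3 of GRCm38 the gene spans 129532386 to 129638495.

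Upstream of the elongase, Fasn and Acly had lower means in myotubes without passing the test. Fasn, the fatty acid synthase, was at 216, 397 and 251 CPM in myotubes, against 678, 398 and 462 CPM in myoblasts. The groups were separated by a narrow margin, since myotube replicate 2 lay just below myoblast replicate 2, and the log2 fold change of -0.83 ± 0.30 (SE) did not pass (edgeR adjusted p = 0.0565). Acly, the citrate lyase that supplies cytosolic acetyl-CoA, was at 148, 229 and 168 CPM in myotubes, against 378, 268 and 228 CPM in myoblasts (log2 fold change -0.68 ± 0.25, SE; edgeR adjusted p = 0.0635). DESeq2 called both lower (adjusted p = 0.0309 for Fasn and 0.0469 for Acly), as did edgeR with library size scaling (0.0398 and 0.0459), with no filter (0.0144 and 0.0243) and without myotube replicate 2 (0.0236 and 0.0405). By limma-voom Fasn passed (adjusted p = 0.0467) and Acly did not (adjusted p = 0.0631). The adjusted p ranged up to 0.166 for Fasn and 0.177 for Acly over the 14 alternatives.

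The acetyl-CoA carboxylase genes differed from each other in level. Acaca, the cytosolic form that serves synthesis, was at 109, 134 and 114 CPM in myotubes, against 162, 101 and 111 CPM in myoblasts (log2 fold change -0.07 ± 0.22, SE). Acacb, the form at the mitochondrial surface that is known to restrain fatty acid oxidation in muscle, had 93, 63 and 36 counts in myotubes, or 3.60, 2.05 and 2.09 CPM. In myoblasts it had 81, 32 and 6 counts, or 1.35, 0.779 and 0.281 CPM, and all myotube libraries were above all myoblast libraries. The log2 fold change was 1.63 ± 0.57 (SE), and it did not pass (edgeR adjusted p = 0.0513), while it did with the replicate number as a block (0.0202) and by DESeq2 (0.0116). The adjusted p ranged up to 0.197 over the 14 alternatives. Per kilobase, Acacb was 5.54%, 2.65% and 3.13% of the sum of both carboxylases in myotubes, against 1.46%, 1.35% and 0.448% in myoblasts. The size of this share rests on the deposited lengths, 9632 bases for Acacb and 17074 bases for Acaca.

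Stard4, which moves sterols between membranes, was at 33.8, 31.1 and 24.6 CPM in myotubes, against 63.0, 43.9 and 27.7 CPM in myoblasts. The groups overlapped through myoblast replicate 3 (log2 fold change -0.59 ± 0.29, SE; edgeR adjusted p = 0.141), and without that library the log2 fold change was -0.86 (adjusted p = 0.0375, up to 0.409 over the 14 alternatives).

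The RPKM scale allows levels of different genes to be set side by side only as far as the deposited lengths hold. These lengths may exceed the transcript present, as Tm7sf2 has 4403 bases in a gene that spans 6062821 to 6067850. Whether they match the transcripts of these cells was not checked. On this scale Scd2 was first in both groups, at a mean of 337 RPKM in myotubes and 208 RPKM in myoblasts. Scd1 came second in myotubes (149 RPKM), followed by Hmgcs1 (73.8 RPKM), Cyp51 (64.6 RPKM) and Insig1 (42.3 RPKM). In myoblasts Hmgcs1 (56.6 RPKM), Scd1 (56.2 RPKM), Acly (55.2 RPKM) and Fasn (46.8 RPKM) followed Scd2, and their means lay closer together than their libraries did. Fasn was ninth in myotubes at 26.3 RPKM. Tm7sf2, at 2.66 RPKM in myotubes and 1.43 RPKM in myoblasts, and Acacb, at 0.268 and 0.0835 RPKM in the same groups, were the lowest of the 29 in both.

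Genes around the pathway, taken from lists chosen with earlier results of these data known, are named where they passed the test, up to 3 in each direction by mean level. In the order of the lists below, 25%, 33.3%, 45.5%, 25%, 70% and 66.7% of the tested genes were called, against 40.1% of all tested genes. In the machinery that processes SREBPs or degrades sterol-sensing proteins, Insig2 was higher and Erlin1 lower among 8 tested genes (median log2 fold change 0.07). Insig2, a second retention protein, was at 124, 65.4 and 65.3 CPM in myotubes, against 33.8, 50.3 and 29.5 CPM in myoblasts (log2 fold change 1.16 ± 0.31, SE; edgeR adjusted p = 0.0199). Its log2 fold change was 0.77 without myotube replicate 1, the library with its highest level. Erlin1, a membrane protein of the endoplasmic reticulum, changed by -0.73 ± 0.19 (SE).

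Of 9 genes of the isoprenoid branch that leads to products other than sterols, 1 was higher and 2 were lower (median 0.03). Pdss1, which makes the side chain of coenzyme Q, fell to 3.63, 6.49 and 5.74 CPM in myotubes, against 22.9, 21.9 and 31.9 CPM in myoblasts (log2 fold change -2.27 ± 0.28, SE; edgeR adjusted p = 0.000719). Nus1, a subunit of the dolichol-forming prenyltransferase, changed by -0.69 ± 0.22, and Pggt1b, a subunit of a protein prenylation enzyme, by 0.63 ± 0.18.

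Among 11 tested genes of other sterol and lipogenic steps, 2 were higher and 3 lower (median -0.27). Acss2, which makes acetyl-CoA from acetate, was at 52.0, 25.5 and 26.4 CPM in myotubes, against 16.3, 6.55 and 2.77 CPM in myoblasts (4.01-fold higher; edgeR adjusted p = 0.0296). Lpin1, a phosphatidate phosphatase, was higher by 1.89 ± 0.59 on the log2 scale (SE). In both, myoblast replicate 1 was the highest and replicate 3 the lowest myoblast library, as for most sterol genes. Without myoblast replicate 1 the log2 fold changes were 2.86 for Acss2 and 2.75 for Lpin1, and without myoblast replicate 3 they were 1.58 and 1.44. Tmem97, an SREBP target of the endoplasmic reticulum, changed by -1.52 ± 0.17, the malic enzyme gene Me1 by -0.91 ± 0.25 and the desaturase Fads1 by -0.56 ± 0.19 (SE). Of 12 tested genes of fatty acid elongation and other desaturases, 6 had an unadjusted p under 0.05 in either direction, against 7989 of all 15932 tested genes. After adjustment 3 of the 12 were called, each lower (median of the 12 -0.11). They were Hsd17b12 (-0.87 ± 0.24), a reductase of the elongation cycle, and the elongases Elovl1 (-0.74 ± 0.19) and Elovl4 (-1.42 ± 0.28, SE).

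The liver X receptors (LXRs) sense oxysterols and switch on sterol export. Of 10 tested genes of a list on LXRs, sterol efflux, esterification and oxysterols, 6 were higher in myotubes and 1 lower. The median log2 fold change of the 10 was 1.42, against 0.06 over all tested genes. Abca1, the cholesterol exporter, was at 15.7, 49.8 and 40.4 CPM in myotubes, against 0.685, 1.10 and 0.141 CPM in myoblasts (log2 fold change 5.68 ± 0.67, SE; edgeR adjusted p = 0.000645). Mylip, an LXR target that marks lipoprotein receptors for degradation, was at 50.6, 47.9 and 50.4 CPM in myotubes, against 13.3, 12.3 and 8.44 CPM in myoblasts (log2 fold change 2.12 ± 0.21, SE). The receptor gene Nr1h2 changed by 0.65 ± 0.21. Soat1, which esterifies cholesterol for storage, was lower, at 92.5, 143 and 136 CPM in myotubes, against 149, 262 and 317 CPM in myoblasts (log2 fold change -0.97 ± 0.30, SE).

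AMP-activated kinase inactivates acetyl-CoA carboxylase by phosphorylation. Of 9 tested genes of this kinase and of malonyl-CoA control, 4 were higher and 2 lower (median -0.02). Among the gamma and beta subunit genes, calls went in both directions. Prkag3, the gamma subunit known from skeletal muscle, was at 24.8, 79.4 and 95.4 CPM in myotubes, against 0.902, 1.02 and 1.08 CPM in myoblasts (log2 fold change 6.06 ± 0.54, SE), while Prkag2 changed by -2.36 ± 0.26. Prkab2 and Prkaa2 were higher by 1.14 ± 0.18 and 2.01 ± 0.26 on the log2 scale, and Prkab1 changed by -0.79 ± 0.20 (SE). The remaining subunit genes of the list, Prkaa1 (-0.35, edgeR adjusted p = 0.148) and Prkag1 (-0.36, edgeR adjusted p = 0.0956), did not pass. Whether the counts differ between the lists was not tested. Many calls around the pathway were lost when 1 of the 6 libraries was left out. The share of all tested genes called also moved, to between 27.7% and 41.8%, against 40.1% with all libraries, and the part of fewer libraries in the lost calls was not tested. With 1 library left out in turn, Prkab1 kept its call in 5 runs, Insig2 and Hsd17b12 in 4, and Erlin1, Acss2 and Elovl1 in 3. Nus1, Lpin1, Fads1, Me1 and Soat1 kept it in 2, and Pggt1b and Nr1h2 in 1. The log2 fold changes in these runs lay between -0.89 and -0.55 for Nus1 and between -1.24 and -0.75 for Soat1. Pdss1, Tmem97, Elovl4, Abca1, Mylip, Prkag3, Prkag2, Prkab2 and Prkaa2 kept it in all 6.

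**Figure D4:**
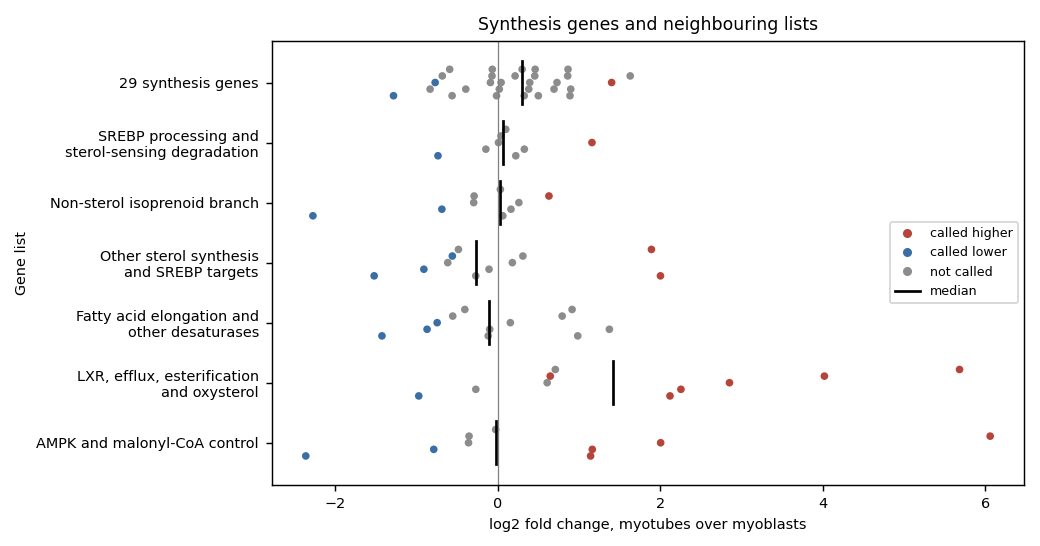
Log2 fold change, myotubes over myoblasts, of the tested genes in the 29-gene set (top row) and in 6 neighbouring lists; red and blue points were called higher and lower, and the black line is the median of each list. The 29 synthesis genes lie between -1.28 and 1.63 with a median of 0.30, while Abca1 (5.68) and Prkag3 (6.06) stand far to the right.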

How the data were processed

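Total RNA libraries of C2C12 cells were made with an Illumina kit that keeps strand and removes ribosomal RNA, per the labels' protocols. The deposited table holds raw counts per gene with GENCODE identifiers, symbols and lengths. The submitters' processing notes name featureCounts 1.5.1, STAR 2.5.1b, the build mm10 and DESeq2 1.18.1 without roles. How strand and shared reads were handled is not given in the sources used here, and paralogs, pseudogene copies and antisense overlaps are uncertain. A second deposited table, a scaled signal, equals the counts times 1 factor per library (0.522 to 1.89, over genes with more than 50 counts) and was not tested. The stem cell snoRNA tables hold none of these genes and were not used.

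All tests used edgeR 4.0.16 in R 4.3.3 on the whole count table, with TMM scaling, filterByExpr (minimum count 10) by group, a robust quasi-likelihood F-test without covariates and Benjamini-Hochberg adjustment over 15932 genes, at 0.05. The SE is the absolute log2 fold change over the square root of F. The log2 CPM used for deviations and ranges had a prior count of 2. DESeq2 1.42.0 and limma 3.58.1 (voom) were alternatives. The fit was also run on simulated counts drawn independently for each gene. That run does not cover library shifts shared by many genes. No 2 libraries of a group agreed within sampling noise (the lowest chi-square over its degrees of freedom was 104.4). Same-numbered samples deviated together weakly over the tested genes (correlations 0.232, 0.189 and 0.17). The meaning of the numbers in the labels is not stated. They were used as a block in an alternative only, and the main test was unpaired. Myotube replicate 2 and myoblast replicate 3 had a higher correlation, 0.358.

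The 29 genes and all lists were chosen with earlier results of these data known. Named genes were all 29, and up to 3 called genes per direction and list with the highest mean CPM. Gene locations and promoters are from RefSeq, GRCm38.p6, matched by symbol. All 29 genes had a location. No protein or lipid was measured in the tables used.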

Additional observations from a re-analysis of the deposited data

How the results depend on the processing

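Scd1, Elovl6 and Scap kept their direction and call under all 14 settings, and no called gene among the 29 or the other named genes turned direction. The number of the 29 called higher, 1 as reported, was 2 with RLE scaling, DESeq2, limma-voom or the replicate block, each time adding Acacb, and 3 with no filter on low counts. The number called lower, 2 as reported, was 4 with library size scaling, no filter or DESeq2, adding Acly and Fasn, and 3 with limma-voom, adding Fasn. Leaving out 1 library at a time gave 1 to 4 higher and 2 to 4 lower; 4 were higher without myotube replicate 1 (Cyp51, Dhcr7, Ebp and Scd1) or without myoblast replicate 1 (Acacb, Cyp51, Dhcr7 and Scd1), and 4 were lower without myotube replicate 2. Without both myotube replicate 1 and myoblast replicate 3, chosen after seeing the data, 4 were higher and 3 lower. The cause was not tested. Counts over all genes stayed within 1.5 times of those reported (2430 to 3908 higher, 2127 to 3678 lower). The median log2 fold change of the 29, 0.30 as reported, lay between -0.09 (without myotube replicate 2) and 0.43 (without myoblast replicate 1) with 1 library left out, and 12 to 22 of the 29 were then positive. With library size scaling the median over all genes was -0.07 on the log2 scale, against 0.06 as reported, and 16 of the 29 were positive, against 18 as reported. Apart from Acacb, the replicate block changed no call among the 29. Depth limits Acacb most, with 6 counts in myoblast replicate 3.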
